A study of Mus musculus with 3 samples.

Results

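The alarmin and IL-1 family genes followed here across ear skin were the cytokine genes Il33, Tslp, Il1a, Il18 and Il1b, the antagonist gene Il1rn, the decoy receptor gene Il1r2 and the receptor genes Il1r1 and Il1rl1. These 9 genes were taken by name, not by level, out of 31053 genes in the count tables. They were read in 8 cell gates set on raw transcript counts: basal-type keratinocytes (Krt5 and Krt14 at 0.3% of the cell's transcripts or more, Krt1 and Krt10 under 0.2%), suprabasal-type keratinocytes (the same, with Krt1 and Krt10 at 0.5% or more), fibroblasts (Dpt 2 or more), lymphatic endothelium (Prox1 2 or more), blood endothelium (Cdh5 and Ptprb 3 or more with no Prox1 or Mmrn1), Langerhans cells (Cd207 2 or more), macrophages (C1qa, C1qb and C1qc 5 or more) and epidermal γδ T cells (Trdv4 1 or more).

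The study profiled ear skin cells by droplet single-cell RNA sequencing in wild-type C57BL/6J mice aged 4 weeks (young WT; 5 males and 3 females), wild-type C57BL/6J mice aged 8 weeks (adult WT; 6 males and 4 females) and Langerin-DTA mice aged 8 weeks (Lang-DTA; 4 males and 6 females), all untreated. In Langerin-DTA mice, human Langerin regulatory sequence drives diphtheria toxin subunit A, which removes the Langerhans cells of the epidermis, and per the labels wild-type littermates served as controls in work with this line. The animals of a group were pooled into 1 library, so each comparison sets 1 library against another, no test was made, and every interval below covers counting error only, not the variation between mice. Lymphatic endothelial, blood endothelial, CD45-positive and double-negative cells were sorted and mixed in equal parts, so numbers of cells are not proportions in the skin.

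Alarmins are cytokines that barrier cells hold or make and release on damage. IL-33 signals through ST2, the product of Il1rl1, and TSLP through a receptor made of the products of Crlf2 and Il7r. IL-1α and IL-1β act through IL-1R1 paired with the accessory protein encoded by Il1rap, while IL-1R2 binds the same cytokines without signalling and the product of Il1rn blocks IL-1R1. IL-1β and IL-18 are made as precursors that caspase-1 can cut. In skin, keratinocytes are the best-known source of IL-33, TSLP, IL-1α and IL-1 receptor antagonist.

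The 3 libraries held 137441575, 128595813 and 124590777 transcript counts (unique molecular identifiers, UMIs) for young WT, adult WT and Lang-DTA, and the 8 gates took in 9278, 9514 and 9127 cells. In each library all 6 markers fixed for a gate were highest in that gate, except Ptprc in the Langerhans gate. The markers include the genes that set the gates, so part of this outcome was fixed by the gating rule. The Langerhans gate held 569 and 416 cells in the wild-type libraries and 6 in Lang-DTA, so the genotype comparison has no value there. Pairs of libraries shared 39 to 50 cell barcodes, and 0 barcodes were in all 3. Levels are counts per 1000000 UMIs of the gate (CPM) with an exact 95% Poisson interval. A difference was called when the levels were at least 1.5-fold apart with at least 50 UMIs over both libraries, at least 10 CPM in the higher and at least 50 cells in each; "rose" and "fell" are kept for such pairs.

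The clearest difference was Tslp in lymphatic endothelium, at 14.2 CPM in young WT, 13.8 in adult WT and 127 in Lang-DTA. In keratinocytes, the cells with the highest Il33, no member was called between Lang-DTA and adult WT, whereas Il1rn was 1.88-fold higher at 8 weeks than at 4 weeks. In fibroblasts the decoy receptor gene Il1r2 was 1.91-fold higher in adult WT than in young WT and 1.80-fold lower in Lang-DTA than in adult WT. In lymphatic endothelium the signalling receptor gene Il1r1 was 3.35-fold lower in Lang-DTA than in adult WT. This Il1r1 level rests on few cells, with a UMI in 6.00% of adult WT and 4.58% of Lang-DTA lymphatic cells. It was also below the level in macrophages, the gate taken to lack Il1r1, which was 54.1 CPM in adult WT and 20.2 in Lang-DTA.

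Between adult WT and young WT, 32 of 72 pairs of a gene and a gate were above the minimum counts. Of these, 9 were higher in adult WT and 5 lower, where 5.62% and 6.73% of all gene and gate pairs passed the same rule. Between Lang-DTA and adult WT, 27 of 63 pairs were above the minimum, 7 were higher and 5 lower, against 7.04% and 4.29% of all pairs.

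By gate, the members called between the ages and the share of all genes called there were as follows. In basal-type keratinocytes 1 of 4 members rose and 0 fell (4.15% and 3.8% of genes), and in suprabasal-type cells 2 of 5 rose and 1 fell (6.56% and 6.93%). In fibroblasts 1 of 4 rose and 1 fell (6.06% and 10.3%), in lymphatic endothelium 1 of 3 rose and 1 fell (5.76% and 6.07%), and in blood endothelium 1 of 3 rose and 0 fell (3.82% and 4.37%). Langerhans cells had 0 of 4 called in either direction (5.38% and 6.03%), macrophages 3 of 7 higher and 1 lower (8.38% and 11.1%), and γδ T cells 0 of 2 higher and 1 lower (5.55% and 6%). The members called in keratinocytes were Il1rn in both gates and Tslp and Il1r2 in suprabasal-type cells.

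Between genotypes, 0 of 5 members were called in basal-type keratinocytes (0.412% of genes higher and 0.286% lower) and 0 of 5 in suprabasal-type cells (2.53% and 3.02%). Lymphatic endothelium, where all genes differed most often (23.6% higher and 16.7% lower), had 2 of 3 members higher and 1 lower. Fibroblasts had 1 of 3 higher and 1 lower (6.19% and 3.13%), blood endothelium 1 of 3 higher and 1 lower (2.35% and 0.623%), macrophages 1 of 5 higher and 1 lower (8.48% and 3.99%) and γδ T cells 2 of 3 higher and 1 lower (4.76% and 1.21%). Pairs of 1 gene in several gates, and both comparisons through the adult WT library, share their source. The dot plot of levels by gate shows each gene's own pattern over cell types.

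**Figure D1:**
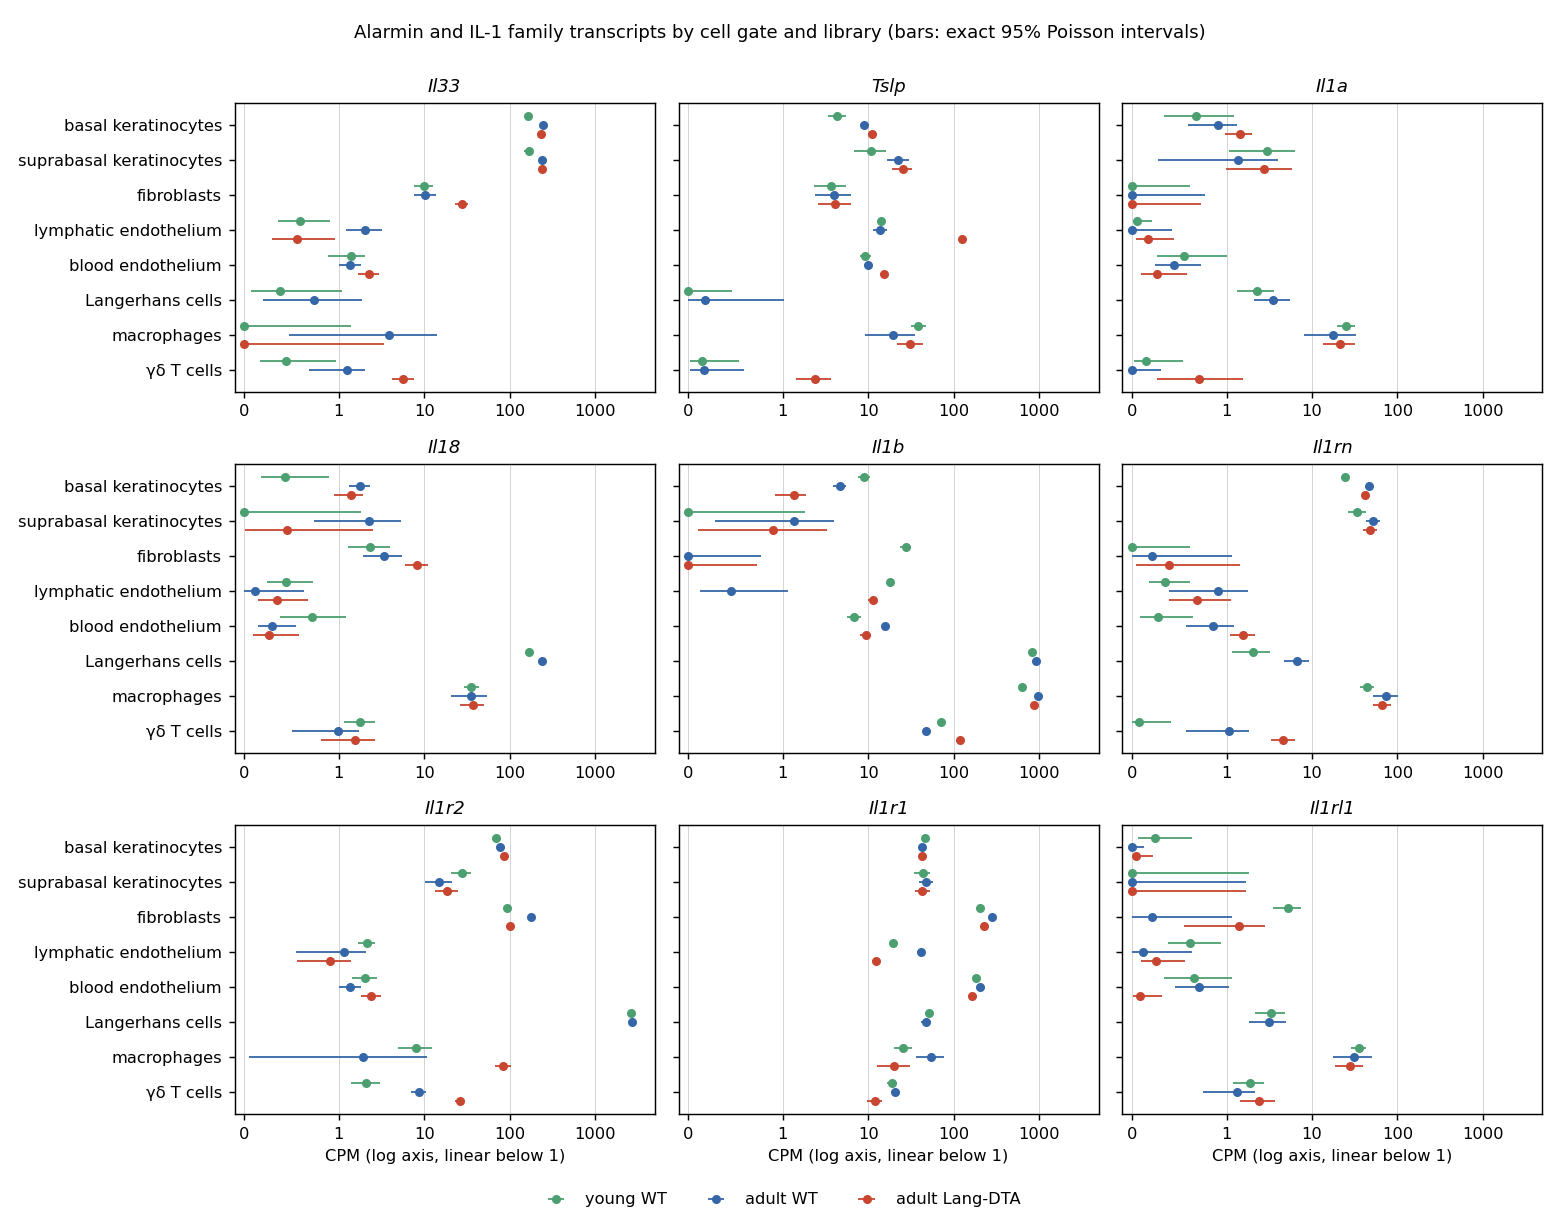
CPM of the 9 genes (1 panel each, log axis that is linear below 1) in the 8 gates, with 1 point per library and exact 95% Poisson intervals; the Langerhans gate of Lang-DTA, with 6 cells, is left out. Il33 sits above 160 CPM in keratinocytes of all 3 libraries and near 0 in immune gates, Il1r2 is at 2632 and 2717 CPM in Langerhans cells, and the Lang-DTA point for Tslp in lymphatic endothelium stands apart at 127 CPM.

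Il33 encodes the alarmin IL-33, stored in the nucleus of barrier cells. The gene lies on the plus strand of chromosome 19 (GRCm38, 29925114 to 29960718). RefSeq lists 2 transcript starts for it, and the 300 bases around each (250 before and 50 after the start) are shown because the gene's level set keratinocytes apart from every other gate. None of these windows holds the AP-1 motif TGANTCA on either strand or a match to the NF-kB motif, which 7.81% and 4.51% of all 32851 RefSeq mouse windows of this length hold.
Il33 start at chr19:29924863-29925162, plus strand: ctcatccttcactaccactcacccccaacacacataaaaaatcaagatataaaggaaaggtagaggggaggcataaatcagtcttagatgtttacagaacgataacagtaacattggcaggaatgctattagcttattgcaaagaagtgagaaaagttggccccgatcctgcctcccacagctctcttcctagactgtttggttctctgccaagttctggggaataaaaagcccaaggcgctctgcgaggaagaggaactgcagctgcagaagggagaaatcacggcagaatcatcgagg
Il33 start at chr19:29945540-29945839, plus strand: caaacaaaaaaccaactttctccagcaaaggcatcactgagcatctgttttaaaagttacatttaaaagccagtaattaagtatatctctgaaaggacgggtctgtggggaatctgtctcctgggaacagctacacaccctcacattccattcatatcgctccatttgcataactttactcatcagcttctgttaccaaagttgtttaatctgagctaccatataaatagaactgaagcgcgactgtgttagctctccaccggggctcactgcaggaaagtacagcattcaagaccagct

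In basal-type keratinocytes Il33 stood at 165 CPM (159 to 172) at 4 weeks, 244 (239 to 250) in the adult WT library and 233 (227 to 239) in Lang-DTA. The adult WT level was 1.48-fold (1.41 to 1.55) that of young WT, just inside the 1.5-fold limit, and the Lang-DTA level was 0.95-fold (0.92 to 0.99) that of adult WT. Male-called cells gave 157, 244 and 250 CPM and female-called cells 183, 248 and 229 CPM, so in both sexes the 4-week library was lowest. Suprabasal-type keratinocytes gave 166, 240 and 240 CPM, and cells with intermediate Krt1 and Krt10 gave 225, 325 and 268 CPM.

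An Il33 UMI was found in 65.9%, 73.3% and 70.4% of basal-type cells at median depths of 15361, 13332 and 10683 UMIs per cell. Thinned to 2000 UMIs per cell the shares were 24.5%, 33.6% and 32.5%, against 0.0652%, 0.24% and 0.272% in γδ T cells, which should lack the gene. Basal-type cells held 68.4%, 75.4% and 72.0% of all Il33 UMIs of their library. Most Il33 transcript in these mixtures thus lay in basal-type keratinocytes at both ages and in both genotypes.

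Outside the epidermis Il33 was low. Fibroblasts held 9.85, 10.3 and 27.4 CPM, a rise of 1.42 on the log2 scale (0.94 to 1.92) from adult WT to Lang-DTA. That rise rests on 49 and 139 UMIs, and 9 cells with 5 or more UMIs held 54.0% of those in Lang-DTA. It was not seen in female-called cells, at 19.5 and 22.6 CPM (log2 ratio 0.22), while male-called cells gave 2.21 and 31.3 CPM. Lymphatic and blood endothelium were between 0.56 and 2.23 CPM in every library.

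Tslp, on chromosome 18, encodes thymic stromal lymphopoietin, an epithelial cytokine that acts on dendritic cells and lymphocytes. The long non-coding RNA gene 4930455D15Rik overlaps it on the other strand, and with no strand setting stated reads of the overlap cannot be told apart. Lymphatic endothelium held 484 Tslp UMIs in 3929 young WT cells, 121 in 1500 adult WT cells and 2945 in 2272 Lang-DTA cells. The levels were 14.2 CPM (13.0 to 15.5), 13.8 (11.4 to 16.4) and 127 (122 to 131). The wild-type libraries thus lay within each other's intervals, and Lang-DTA was 9.20-fold above adult WT (7.67 to 11.1; log2 ratio 3.20). A share of 1.37% of genes had a log2 ratio as high as that of Tslp or higher.

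The difference was found both as more positive cells and as more UMIs in single cells. A Tslp UMI was present in 10.4% (9.42 to 11.4), 7.60% (6.31 to 9.06) and 33.7% (31.8 to 35.7) of lymphatic cells, at median depths of 7888, 5060.5 and 9317 UMIs. After thinning to 2000 UMIs the shares were 2.66%, 2.63% and 13.6%, against 0.0163%, 0.0276% and 0.195% in γδ T cells. No wild-type lymphatic cell had more than 5 Tslp UMIs, the highest being 5 in young WT and 2 in adult WT. In Lang-DTA, 78 cells (3.43%) had 10 or more, up to 62, and held 48.8% of the Tslp UMIs, while 66.3% of cells had none.

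**Figure D2:**
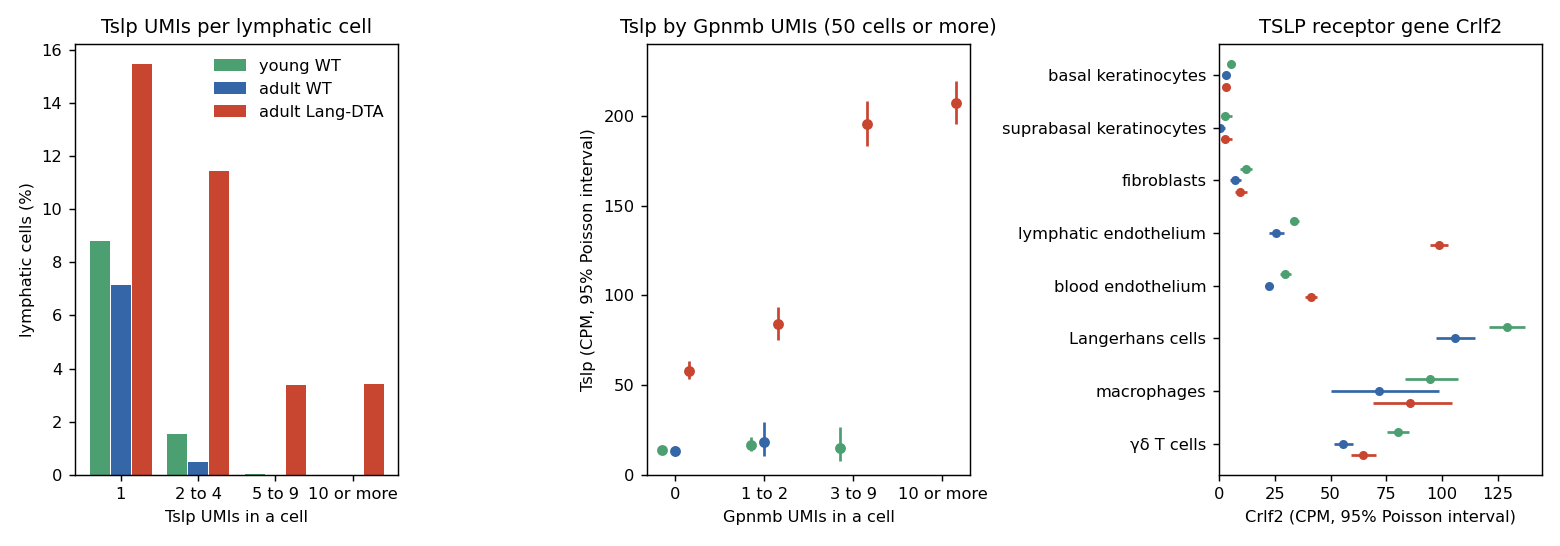
Left, share of lymphatic cells with 1, 2 to 4, 5 to 9 or 10 or more Tslp UMIs by library; middle, Tslp CPM by Gpnmb UMIs in the same cell where at least 50 cells were present; right, Crlf2 CPM by gate (points with exact 95% Poisson intervals). Lang-DTA bars are highest in every class, Tslp in Lang-DTA goes from 58.1 CPM at 0 Gpnmb UMIs to 207 CPM at 10 or more, and Crlf2 in lymphatic endothelium is 98.6 CPM in Lang-DTA against 25.6 in adult WT.

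Several other features moved with Tslp in the Lang-DTA lymphatic gate. The summed level of the 6 lymphatic markers, none of them at 0, was 7420, 7138 and 4226 CPM in young WT, adult WT and Lang-DTA. Gpnmb, a lysosome-associated glycoprotein gene, was at 20.5, 23.2 and 452 CPM, and Gdf15, a stress-induced cytokine gene, at 280, 233 and 2235 CPM. Lang-DTA cells were therefore split by these genes after the values were seen. Tslp was 58.1, 84.1, 195 and 207 CPM in cells with 0, 1 to 2, 3 to 9 and 10 or more Gpnmb UMIs. In cells with neither a Gpnmb nor a Gdf15 UMI, 34.3% of the gate, it was 58.1 CPM, where the same cells of young WT and adult WT gave 14.1 and 14.7 CPM. The excess was thus smaller but present in cells in which no UMI of these genes was counted. In Lang-DTA these cells were shallower, with a median of 6715 UMIs against 9317 for the gate. A count of 0 therefore does not show that a cell lacks the transcripts. The part of depth and of the change in cell state in the whole difference was not tested.

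The difference was present in each further split. Male-called cells held 13.8, 14.6 and 118 CPM of Tslp and female-called cells 13.9, 12.8 and 137 CPM. Cells without Lyve1, a marker of lymphatic capillaries, held 9.92, 7.60 and 83.1 CPM, and cells with 5 or more Lyve1 UMIs 17.2, 17.7 and 147 CPM. Cells without a UMI of Ptprc, a leukocyte gene, gave 14.2, 14.0 and 127 CPM and held 475 of the 484, all 121 and 2924 of the 2945 Tslp UMIs. They were 98.6%, 98.6% and 99.0% of the gate.

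The receptor side was read from Crlf2, the gene of the TSLP-specific chain, and Il7r, the gene of the shared chain. Crlf2 in lymphatic endothelium was 33.6 CPM in young WT, 25.6 in adult WT and 98.6 in Lang-DTA, 3.85-fold higher in Lang-DTA than in adult WT. Without Gpnmb and Gdf15 cells it was 30.9, 23.1 and 48.3 CPM, and male-called and female-called Lang-DTA cells gave 101 and 102 CPM. In lymphatic endothelium Il7r was at 1.41, 6.71 and 1.504 CPM, in 0.433%, 0.6% and 0.308% of cells, whereas Langerhans cells held 331 and 302 CPM. In γδ T cells Crlf2 was at 80.2, 55.7 and 64.6 CPM, above lymphatic endothelium in both wild-type libraries and below it in Lang-DTA. Il7r there was at 61.6, 150.3 and 60.0 CPM. It rose by 1.29 on the log2 scale with age and fell by 1.32 from adult WT to Lang-DTA.

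Among the main cell gates listed at the start, no other gate of Lang-DTA held more than 31.2 CPM of Tslp. Some cell sets outside these gates, among them the cells that passed no gate, were above that level. In the wild-type libraries macrophages, and in adult WT also suprabasal-type keratinocytes, were above lymphatic endothelium. Blood endothelium held 9.26, 10.0 and 15.2 CPM, 1.52-fold (1.30 to 1.77) higher in Lang-DTA than in adult WT. This call ended in 7 alternatives: with cells of more than 1 type kept (log2 ratio 0.56), without the cells of the highest UMI totals (0.47), with each cell weighed the same (0.43), under median-of-ratios scaling (0.53), in male-called cells (0.31), at 2-fold and with a minimum of 100 UMIs and 30 CPM. Crlf2 rose there too, from 22.5 to 41.0 CPM. Cells of the gate without Gpnmb and Gdf15 UMIs gave 9.34, 10.1 and 13.7 CPM of Tslp.

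Suprabasal-type keratinocytes held 10.7, 22.6 and 25.2 CPM of Tslp, a 2.11-fold rise (1.25 to 3.65) from young to adult WT on 22 and 50 UMIs that was under the minimum counts in each sex alone. Basal-type cells held 4.33, 9.02 and 11.1 CPM, under the minimum of 10 CPM for the age comparison. The Lang-DTA and adult WT levels were within 1.5-fold of each other in both keratinocyte gates. Macrophages held 38.8, 19.3 and 31.2 CPM, a log2 ratio of -1.004 with age (-2.11 to -0.07) that rests on 10 UMIs in adult WT. Langerhans cells held 0 and 1 Tslp UMIs in all, the first of which allows up to 0.376 CPM.

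Il1a (chromosome 2, 129299610 to 129309972, minus strand) encodes IL-1α, the form of IL-1 that is active without caspase-1 cleavage. It was low in every gate, with 214, 125 and 117 UMIs in the whole of the 3 libraries. Macrophages held 25.1, 17.4 and 21.1 CPM on 66, 9 and 23 UMIs, within 1.5-fold from young to adult WT. Basal-type keratinocytes held 0.68, 0.91 and 1.42 CPM. A UMI was found in 10.5%, 10.9% and 4.07% of macrophages, against 0.0509%, 0% and 0.132% of lymphatic cells, where 0 of 1500 cells allows up to 0.2%. Any difference of Il1a in keratinocytes was not detectable at this depth.

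Il18 (chromosome 9, 50554827 to 50581840, plus strand) encodes an IL-1 family cytokine that acts on T and innate lymphoid cells. Langerhans cells held 168 CPM (159 to 177) in young WT and 239 (226 to 252) in adult WT, a ratio of 1.42 that stayed within the limit. They held 64.1% and 77.0% of all Il18 UMIs of these libraries, and Il18 over the whole library was 15.3, 13.3 and 2.47 CPM. Thinned to 2000 UMIs, 27.1% and 36.4% of Langerhans cells had an Il18 UMI, against 0.229% and 0.0656% of γδ T cells. Macrophages held 35.7, 34.8 and 36.7 CPM, with intervals that overlap, and basal-type keratinocytes 0.43, 1.75 and 1.38 CPM. Its receptor gene Il18r1 was at 144, 205 and 141 CPM in γδ T cells. The genes Bco2 and Tex12 overlap Il18 on the other strand, and the strand setting of the counting is not given in the sources used here.

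Il1b (chromosome 2, 129364570 to 129371139, minus strand), the gene of IL-1β, was a myeloid transcript in all libraries. Langerhans cells held 828 and 915 CPM, and macrophages 629, 984 and 870 CPM. Cells that passed none of the 8 gates but held 3 or more UMIs of Mgl2 and Lyz2, genes of dermal dendritic and myeloid cells, held 2917, 3094 and 2577 CPM. This further set carried 58.2%, 36.9% and 51.8% of all Il1b UMIs of the libraries. In macrophages Il1b rose 1.56-fold (1.41 to 1.73) from young to adult WT, but the log2 ratio was -0.33 in male-called cells and 0.45 with cells of more than 1 type kept, and the adult gate has 55 cells.

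The other called differences of Il1b lay in the endothelial, fibroblast and γδ T cell gates, and there each rests on a few cells. Lymphatic endothelium held 18.0, 0.45 and 11.3 CPM: 14 cells held 584 of the 613 UMIs in young WT, and 7 cells 260 of the 262 in Lang-DTA. Of these, all 14 and 6 of the 7 also held a Ptprc UMI, which 1.37% and 0.968% of the gate's cells did. Fibroblasts held 27.6 CPM in young WT, of which 2 cells carried 160 of 165 UMIs, and 0 UMIs in both adult libraries, at least 14.7-fold lower in adult WT when 3 counts stand for 0. Blood endothelium held 6.85, 15.8 and 9.30 CPM and γδ T cells 71.4, 47.1 and 120 CPM, with 25 cells carrying 1012 of 1018 UMIs in the last. Without cells that held immune genes, left out after the values were seen, every one of these 7 calls fell below the minimum counts. The antisense gene Il1bos overlaps Il1b.

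Il1rn (chromosome 2, 24336853 to 24351494, plus strand) encodes the IL-1 receptor antagonist. The window of its most upstream RefSeq start is shown because this gene was the only member called between the ages in basal-type keratinocytes; the AP-1 match, the 1 found in its 3 windows, is in capitals. A match is a description of the letters and not a site in use.
Il1rn start at chr2:24336610-24336909, plus strand: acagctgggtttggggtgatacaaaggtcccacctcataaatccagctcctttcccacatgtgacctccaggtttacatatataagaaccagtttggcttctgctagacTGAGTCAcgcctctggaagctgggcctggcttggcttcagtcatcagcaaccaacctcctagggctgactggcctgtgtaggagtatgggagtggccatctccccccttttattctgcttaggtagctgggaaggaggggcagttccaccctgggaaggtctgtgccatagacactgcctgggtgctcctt

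Il1rn in basal-type keratinocytes was 24.5 CPM (22.2 to 27.1) at 4 weeks, 46.2 (43.7 to 48.8) in the adult WT library and 42.1 (39.6 to 44.8) in Lang-DTA. It rose 1.88-fold (1.68 to 2.11) from 4 to 8 weeks, and Lang-DTA was 0.91-fold (0.84 to 0.99) of adult WT. Male-called cells gave 24.4, 48.0 and 47.0 CPM and female-called cells 24.5, 45.1 and 40.4 CPM. Thinned to 2000 UMIs, 4.32%, 8.21% and 7.30% of cells had a UMI, against 0%, 0.032% and 0.0371% of fibroblasts. Both adult libraries were thus above the young one in every split.

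The same order was found in suprabasal-type cells, at 33.7, 51.6 and 48.2 CPM, and in cells of intermediate Krt1 and Krt10, at 19.5, 53.9 and 52.6 CPM. The suprabasal ratio of 1.53 (1.13 to 2.10) fell inside the limit when each cell weighed the same (log2 ratio 0.45), in female-called cells (0.37), without the cells of the highest UMI totals (0.55) and without cells that held immune genes (0.58). Macrophages held 43.7, 73.5 and 66.1 CPM, a 1.68-fold rise with age that had the opposite direction in male-called cells (log2 ratio -0.86) and was within the limit with cells of more than 1 type kept (0.55). Fibroblasts held 0, 0.21 and 0.39 CPM.

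Il1r2 (chromosome 1, 40074079 to 40125231, plus strand) encodes the decoy receptor, and the antisense gene Gm16894 overlaps it. It was highest in Langerhans cells, at 2632 CPM (2596 to 2667) in young WT and 2717 (2674 to 2761) in adult WT. A UMI was present in 93.7% and 94.7% of these cells, against 0.814% and 0.533% of lymphatic cells, at median depths of 13415 and 11483 UMIs. The 6 cells of this gate in Lang-DTA held 8 UMIs. The Langerhans gate held 79.9% and 71.8% of all Il1r2 UMIs of the wild-type libraries, and over the whole library Il1r2 was 192, 162 and 29.9 CPM. In Lang-DTA basal-type keratinocytes held the largest part, 57.2%. Their own level was 69.5, 78.1 and 85.7 CPM, within 1.5-fold in both comparisons.

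Fibroblasts held 94.0 CPM of Il1r2 (86.4 to 102) at 4 weeks, 180.0 (168 to 192) in the adult WT library and 100.1 (91.6 to 109) in Lang-DTA. The adult WT library alone stood high, with a log2 ratio of 0.94 (0.78 to 1.09) to young WT and of -0.85 (-1.01 to -0.69) from adult WT to Lang-DTA. Thinned to 2000 UMIs, 10.7%, 20.4% and 12.6% of fibroblasts had an Il1r2 UMI, against 0.230%, 0.225% and 0.120% of lymphatic cells. Male-called cells gave 83.5, 165 and 103 CPM and female-called cells 114, 199.9 and 102 CPM.

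The accessory receptor gene Il1rap followed the same order in fibroblasts, at 77.7, 149.8 and 72.1 CPM. Both transcripts lay mainly in fibroblasts with a Gpnmb UMI, a split made after the values were seen: there Il1r2 was 220.4, 261 and 187 CPM, and in fibroblasts without one 23.7, 51.0 and 40.2 CPM. The cells with Gpnmb were 28.4%, 53.0% and 36.0% of the gate. Il1rap was 165, 216 and 123 CPM in them and 28.9, 44.5 and 36.9 CPM in the others. The makeup of the gate by this gene thus moved together with Il1r2 and Il1rap. The summed fibroblast marker level, with none of the 6 markers at 0, was 35071, 39991 and 27035 CPM. The share of the difference that comes from the makeup was not tested.

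**Figure D3:**
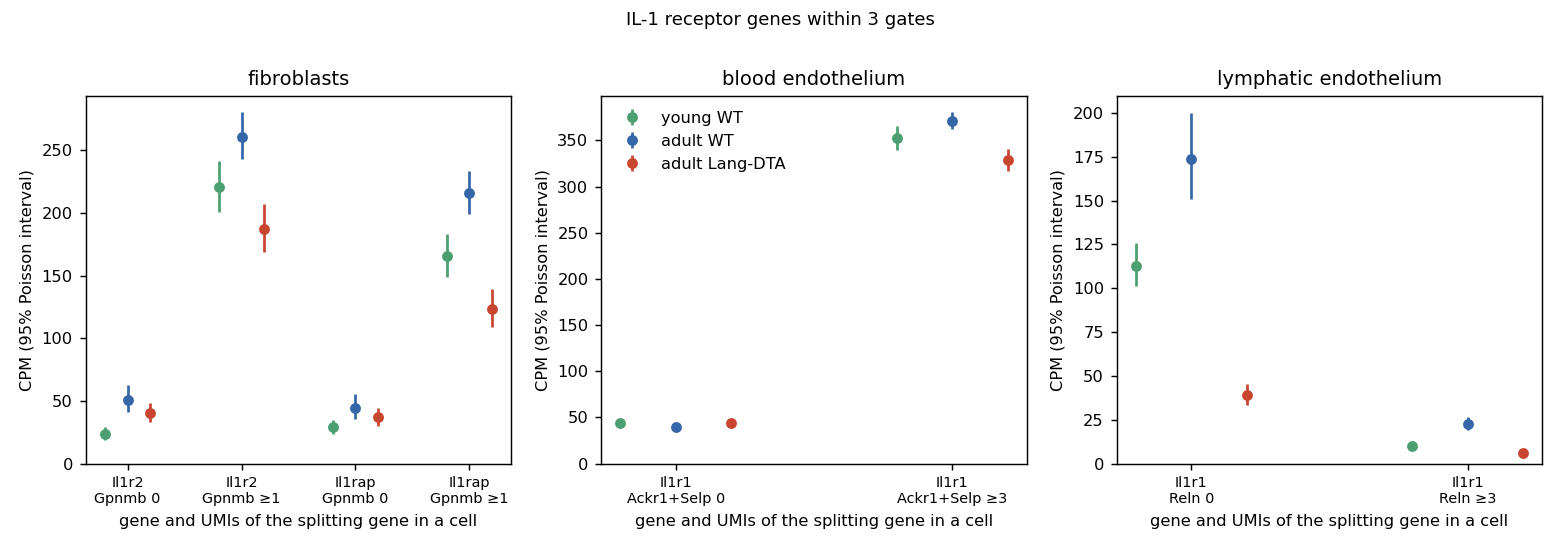
CPM with exact 95% Poisson intervals by library for Il1r2 and Il1rap in fibroblasts without and with a Gpnmb UMI, Il1r1 in blood endothelium with no or at least 3 Ackr1 and Selp UMIs, and Il1r1 in lymphatic endothelium with no or at least 3 Reln UMIs. In blood endothelium the splitting genes separate the points more than the library does (44.1 against 353 CPM in young WT), and in lymphatic cells without Reln the Lang-DTA point, 38.9 CPM, lies under both wild-type points.

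Il1r2 was called in a further 3 gates, on few UMIs or few cells. In suprabasal-type keratinocytes it was 27.3, 14.9 and 18.5 CPM, a fall of 0.87 on the log2 scale with age on 56 and 33 UMIs. Macrophages held 7.99, 1.93 and 83.5 CPM, where adult WT had 1 UMI, a ratio of 43.2 (7.56 to 1725) that was the highest called for any member between genotypes. With cells of more than 1 type kept, that log2 ratio was -2.60 in place of 5.43. In γδ T cells it was 2.07, 8.62 and 26.3 CPM, and 8 Lang-DTA cells carried 197 of the 223 UMIs. That log2 ratio, 1.61, was 0.25 with each cell weighed the same, -0.76 with cells of more than 1 type kept and -0.60 in female-called cells.

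Il1r1 (chromosome 1, 40225080 to 40317257, plus strand) encodes the signalling IL-1 receptor. Fibroblasts held 207, 281 and 225 CPM and blood endothelium 181, 205 and 165 CPM, within 1.5-fold in both comparisons. Cells with 3 or more UMIs of Rgs5, a pericyte gene, and of no other gate held 320.4, 283 and 299 CPM. In blood endothelium Il1r1 went with the venular genes Ackr1 and Selp, used as a split after the values were seen. Cells with 3 or more UMIs of these genes held 353, 371 and 328 CPM, and cells with none 44.1, 40.1 and 43.7 CPM. The contrast was alike in young WT, adult WT and Lang-DTA. A UMI was found in 89.5%, 88.1% and 85.9% of the first set, against 13.6%, 18.2% and 9.76% of macrophages.

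Lymphatic endothelium held 19.4 CPM (17.9 to 20.9) of Il1r1 at 4 weeks, 41.5 (37.3 to 46.0) in the adult WT library and 12.4 (10.99 to 13.9) in Lang-DTA. The ratio was 2.14 (1.88 to 2.44) from young to adult WT and 0.30 (0.25 to 0.35) from adult WT to Lang-DTA. The first ended when each cell weighed the same (log2 ratio 0.50) and without cells of the highest UMI totals (0.31). The second, -1.75 on the log2 scale, stayed a call in each alternative tried. Macrophages, the gate taken to lack Il1r1, stood higher in each library, at 25.9, 54.1 and 20.2 CPM. Their log2 ratios had the same directions, 1.07 with age and -1.42 for Lang-DTA over adult WT. A UMI was present in only 5.96%, 6.00% and 4.58% of the cells, which is below the share in macrophages and is not read further, and 44, 27 and 24 cells with 5 or more UMIs held 56.3%, 67.1% and 57.6% of the UMIs.

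Lymphatic cells without a UMI of Reln, the gene of the secreted protein reelin, held 51.3%, 54.8% and 59.4% of these UMIs. In cells with no Reln UMI, Il1r1 was 113, 174 and 38.9 CPM, and in cells with 3 or more 10.2, 22.5 and 5.98 CPM. The first set was 9.09%, 11.9% and 22.7% of the gate and the second 76.8%, 70.9% and 47.1%, so the makeup by Reln moved in Lang-DTA together with Il1r1, and its part in the difference was not tested. Cells with neither a Gpnmb nor a Gdf15 UMI gave 24.0, 50.1 and 29.1 CPM. Lang-DTA was below adult WT in each of these splits, which were made after the values were seen.

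In keratinocytes Il1r1 was even across libraries, at 46.8, 42.5 and 42.9 CPM in basal-type and 43.4, 47.5 and 43.3 CPM in suprabasal-type cells. Langerhans cells held 51.2 and 47.6 CPM. Macrophages held 25.9, 54.1 and 20.2 CPM on 68, 28 and 22 UMIs, with log2 ratios of 1.07 with age and -1.42 for Lang-DTA over adult WT. The age call ended with cells of more than 1 type kept (0.52), in male-called cells and with a minimum of 100 UMIs and 30 CPM. The genotype call was under the minimum counts in 5 alternatives, among them each sex alone. γδ T cells held 19.0, 20.9 and 11.9 CPM, lower by 0.81 on the log2 scale in Lang-DTA. That call ended with cells of more than 1 type kept (-0.31), in female-called cells (-0.58), at 2-fold and at the higher minimum.

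Il1rl1 (chromosome 1, 40429570 to 40465415, plus strand) encodes ST2, the receptor for IL-33. It was sparse, with 781, 316 and 340 UMIs per library, and reached the minimum in only 1 of the 8 gates. Macrophages held 35.4, 30.9 and 27.5 CPM, and young and adult WT were within 1.5-fold. Most of its transcripts lay outside the 8 gates. The Mgl2 and Lyz2 cells held 77.6, 50.4 and 47.4 CPM and 63.3%, 25.3% and 20.9% of each library's UMIs.

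Cells with a UMI of Foxp3, the gene that marks regulatory T cells, held 336, 491 and 466 CPM of Il1rl1, in 20, 19 and 33 cells. Cells with both Gata3 and Il7r, genes of innate lymphoid and T cells, held 6.58, 35.4 and 112 CPM, in 97, 219 and 95 cells. These last values rest on 6, 58 and 70 UMIs, of which cells with 5 or more UMIs numbered 0, 6 and 5. A UMI was present in 46.9%, 27.3% and 20.7% of Mgl2 and Lyz2 cells, against 0.282%, 0% and 0.0446% of basal-type keratinocytes, where 0 of 2077 cells allows up to 0.144%. The mast cell gate held 0, 0 and 1 cells, so this known ST2-bearing type could not be read.

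**Figure D4:**
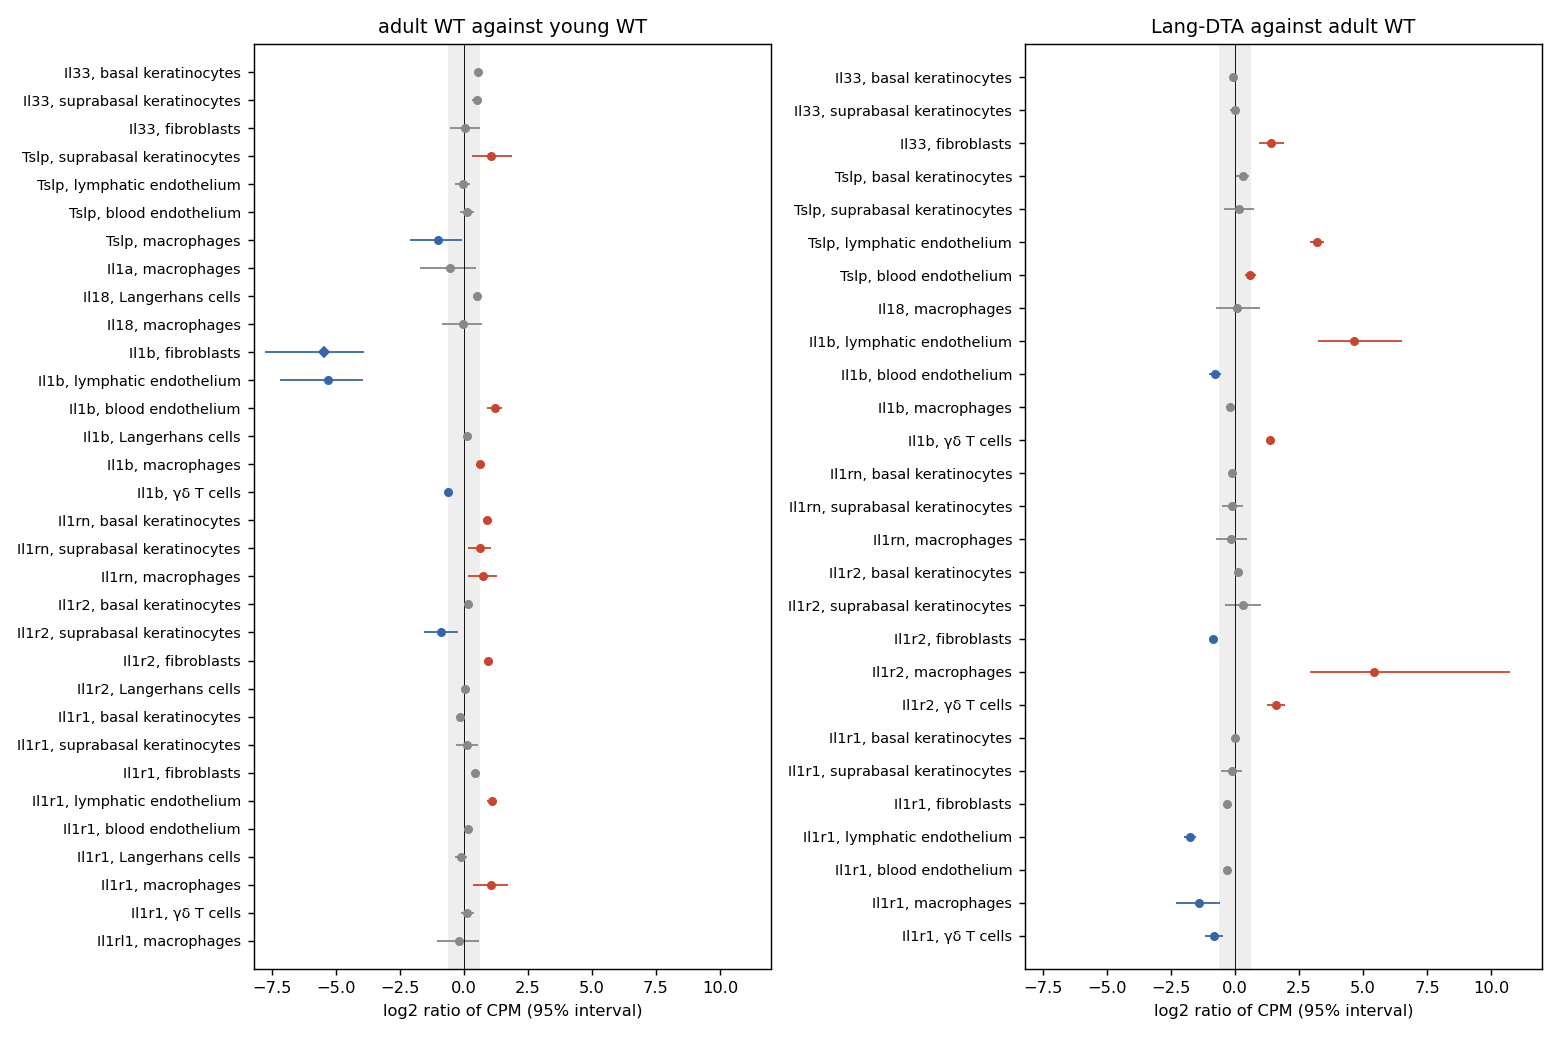
Log2 ratio of CPM with exact conditional 95% intervals for each gene and gate above the minimum counts, adult WT over young WT (left, 32 pairs) and Lang-DTA over adult WT (right, 27 pairs). Red points were called higher, blue lower, grey lie within 1.5-fold (shaded), and the diamond is a bound with 3 counts in place of 0. Tslp in lymphatic endothelium, at 3.20, lies far to the right. The width of an interval follows the number of UMIs and not how many cells hold them. Several Il1b and Il1r2 points, some with narrow intervals, rest on few cells.

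A list of 44 further genes of these pathways was read the same way, and 40 were in the tables. In lymphatic endothelium, 24 were above the minimum between Lang-DTA and adult WT, with 5 higher and 5 lower, where 23.6% of all genes were higher and 16.7% lower, so the counts lie near those of any genes. The median log2 ratio was -0.07, against 0.10 over all genes. The higher ones were Crlf2, Casp4 (166 to 295 CPM), a gene of the inflammatory caspase that senses lipopolysaccharide, the pore-forming gasdermin gene Gsdme (3.75 to 12.5 CPM), the NF-kB subunit gene Rela (57.4 to 92.5 CPM) and Tollip, an inhibitor of IL-1 receptor signalling (36.3 to 58.4 CPM). The lower ones were Il1rap (14.3 to 7.31 CPM), the inhibitory receptor gene Sigirr (21.3 to 9.97 CPM), the inflammasome adaptor gene Pycard (16.8 to 8.47 CPM) and the IL-1 receptor kinase family genes Irak3 (39.8 to 23.6 CPM) and Irak4 (29.3 to 18.0 CPM).

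In the other gates few list genes were called between genotypes, as were few of all genes. Of 21 in basal-type keratinocytes 0 were called (0.412% of all genes higher and 0.286% lower). Of 21 in suprabasal-type cells 1 was higher (2.53% and 3.02%), Il1f5, the gene of the IL-36 receptor antagonist, from 8.60 to 14.0 CPM on 19 and 31 UMIs. Of 25 in blood endothelium 1 was higher, Crlf2 (2.35% and 0.623%). Of 23 in fibroblasts Gsdme was higher (7.96 to 12.8 CPM), and Il1rap and Casp4 (58.9 to 33.3 CPM) were lower (6.19% and 3.13%). Of 24 in macrophages Il1rap (25.1 to 39.5 CPM on 13 and 43 UMIs) and the DNA sensor gene Aim2 (63.8 to 99.1 CPM) were higher and the inflammasome sensor gene Nlrp1b (58.0 to 36.7 CPM) was lower (8.48% and 3.99%). Of 26 in γδ T cells 1 was lower, Il7r (4.76% and 1.21%).

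Between the ages list genes were called in both directions. Of 22 in basal-type keratinocytes Casp4 rose (4.14 to 16.1 CPM) and Il1f5 fell (14.3 to 7.66 CPM), where 4.15% of all genes rose and 3.8% fell. Of 22 in suprabasal-type cells 0 rose, and Il1f5 (21.0 to 8.60 CPM) and the calpain gene Capn2 (21.0 to 9.05 CPM) fell (6.56% and 6.93%). Of 23 in fibroblasts Il1rap and Casp4 (24.9 to 58.9 CPM) rose, and Crlf2 (11.9 to 7.12 CPM) and the kinase family gene Irak2 (12.7 to 7.75 CPM) fell (6.06% and 10.3%). In the endothelial gates the called genes all belonged to the processing group. Of 23 in lymphatic endothelium Casp4 (96.8 to 166 CPM) and Pycard (9.29 to 16.8 CPM) rose and 0 fell (5.76% and 6.07%). Of 25 in blood endothelium 4 rose and 0 fell (3.82% and 4.37%): Casp4 (291 to 453 CPM), Casp1, the gene of the IL-1β and IL-18 protease (12.7 to 21.5 CPM), Pycard (14.7 to 22.1 CPM) and Aim2 (25.5 to 39.7 CPM).

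In the immune gates, of 27 list genes in macrophages Il7r (16.7 to 44.5 CPM on 44 and 23 UMIs) and Casp1 (41.8 to 73.5 CPM) rose with age and 0 fell (8.38% and 11.1%). Of 26 in γδ T cells Casp4 (10.4 to 17.5 CPM), Sigirr (7.63 to 12.3 CPM) and Il7r rose and 0 fell (5.55% and 6%). In Langerhans cells 30 list genes were above the minimum and 0 were called in either direction (5.38% and 6.03%). Casp4 thus rose with age in 5 gates, which share the young and the adult WT library.

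Over 23 points of a gate and a library, the genes with the most similar pattern were found by Pearson correlation of log2(CPM + 1) among 15074 genes. For Il33 these were Fxyd3 (r = 0.98), Sh2d4a and Epn3, for Il1r2 its partner gene Il1rap (r = 0.94), Ninl and Tcea3, and for Il1b H2-Aa (r = 0.98), Cd74 and Ctss. Tslp was nearest to Gpx1 (r = 0.92), Twf1 and Dhrs3, and Il1r1 to Uap1 (r = 0.92), Gnao1 and Asap3. Il1rn was nearest to Dusp22 (r = 0.96), Gltp and Dnase2a, and Il18 to Zc3h12d (r = 0.95), Nxpe5 and Card9. The sparse Il1rl1, with 353 UMIs over the gates, was nearest to Gfra2 (r = 0.98), Ccl9 and Lilr4b. Il1a, with 267 UMIs, was nearest to Atp13a2 (r = 0.94), Rreb1 and Abl2. The points share libraries and depth, so these values describe cell type patterns only.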

How the data were processed

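The authors deposited, for each of the 3 libraries, counts of UMIs per gene and called barcode, made with Cell Ranger 8.01 on GRCm38 per the submitters' processing notes (8.0.1 per the file headers). Libraries were 10x 3' v4 per the labels' protocols. Annotation release, strand setting, intronic reads and free-RNA removal were not given in the sources used here. An imiquimod condition is not analysed here.

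Cells needed 500 genes, 1000 UMIs and a mitochondrial share of 10% or less; kept were 12399 of 12864, 12621 of 13600 and 12941 of 13540 for young WT, adult WT and Lang-DTA, with median depths of 9823, 8479 and 8569 UMIs. Cells passing the gates of more than 1 cell type (297, 301 and 290) were left out as possible doublets; no doublet caller was run. Raw counts were summed per gate and library. With 1 library per group no test was possible. CPM has exact Poisson, ratios exact conditional and shares exact binomial (Clopper-Pearson) 95% intervals; a 0 allows up to 3 counts. Thinned shares are the expected shares at 2000 UMIs. Male- and female-called cells were set by Xist and Y-linked UMIs. Of the 31053 gene IDs, 31011 were found in GENCODE M21, the source of gene positions. RefSeq promoter windows (GRCm38.p6) matched 8 of the 9 genes, with 13 windows.

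All 9 genes are named, list genes when called, and 3 nearest genes per member. Members and lists were chosen with earlier results of these data known. Splits by Gpnmb, Gdf15, Lyve1, Reln, and Ackr1 with Selp were chosen after values were seen. On simulated lymphatic counts with 2-fold changes, 100% of changed genes were called and 93.97% (age) and 97.98% (genotype) of intervals held the truth. These counts were drawn from the Poisson model that the intervals assume, so the run checks the arithmetic only. It does not show how the intervals hold where UMIs lie in few cells. Alternatives were other cell filters, thresholds, weights, scaling, floors, folds and each sex alone. Python 3.11.15, numpy 2.4.6, scipy 1.17.1, pandas 2.3.3 and matplotlib 3.10.9 were used.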

Additional observations from a re-analysis of the deposited data

Results flagged for a closer look

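Some genes were called higher in 1 gate and lower in another under the same comparison; none of these differences between gates was tested, and log2 ratios are given. Between adult and young WT, Tslp was 1.08 in suprabasal-type keratinocytes and -1.004 in macrophages. Il1r2 was 0.94 in fibroblasts and -0.87 in suprabasal-type keratinocytes. Both pairs kept their directions in male-called and in female-called cells. However, both suprabasal-type values were under the minimum counts in each sex, as was macrophage Tslp in male-called cells. Il1b was 1.21 in blood endothelium and 0.65 in macrophages, against -5.45 in fibroblasts, -5.30 in lymphatic endothelium and -0.60 in γδ T cells. Of these 6 pairs of gates, only blood against lymphatic endothelium kept both directions in each sex. Blood and lymphatic ratios were 0.56 and -4.65 in male-called and 0.87 and -2.53 in female-called cells, none of them a call. Those Il1b UMIs lay mostly in a few cells with a Ptprc UMI. Both calls fell below the minimum counts without cells holding immune genes, and the blood ratio was -0.39 without the deepest cells. Between Lang-DTA and adult WT, Il1b was 4.63 in lymphatic endothelium and 1.35 in γδ T cells against -0.76 in blood endothelium, and Il1r2 was 5.43 in macrophages and 1.61 in γδ T cells against -0.85 in fibroblasts. These 4 pairs did not keep their directions in both sexes.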

How the results depend on the processing

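Of 26 called differences, all 26 were called again when every deposited barcode was used, 24 under median-of-ratios scaling, which shifted ratios by at most 0.115, 22 with cells weighted equally, 15 at 2-fold, 11 in male-called and 13 in female-called cells. Tslp and Il1r1 in lymphatic endothelium between Lang-DTA and adult WT stayed called in every alternative, though Il1r1 there was below its level in macrophages. Counts under an alternative can include pairs that were not called in the main setting. For age, the count of 9 higher became 4 at 2-fold, and the count of 5 lower became 3 with gate thresholds doubled or at 2-fold. The count of lower became 2 with a floor of 100 UMIs and 30 CPM, in female-called cells or without cells holding immune genes (added after the data were seen). Male-called cells also gave 2 lower, but each of the 5 calls ended there. Il1rn in macrophages, called higher in all cells, was called lower in them. For genotype, 7 higher became 4 without cells above the 95th percentile of UMIs or without immune-gene cells, 3 in female-called cells and 2 at the higher floor; 5 lower became 11 with cells of more than 1 type kept, 3 without the deepest cells and 2 at the higher floor or at 2-fold. Directions reversed, as log2 ratios with the cause not tested, with cells of more than 1 type kept for Il1r2 for genotype in macrophages (-2.60) and γδ T cells (-0.76). Without the deepest cells they reversed for Il1b for age in blood endothelium (-0.39) and Il1r2 for genotype in γδ T cells (-0.79). In male-called cells they reversed for age for Il1b in fibroblasts (0.31) and macrophages (-0.33) and Il1rn in macrophages (-0.86), and for genotype for Il1b in blood endothelium (0.85). In female-called cells they reversed for Il1b in γδ T cells for age (0.76) and genotype (-0.23) and Il1r2 in γδ T cells for genotype (-0.60), and without immune-gene cells for the last (-1.31). No paired analysis was possible because each group is 1 library and no test was made.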

Other observations

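In Lang-DTA 2579 cells passed no gate, and they held 840 Tslp UMIs, 36.8 CPM, against 8.34 and 9.68 CPM in the same remainder of young and adult WT; 45 of these cells had 5 or more Tslp UMIs, against 0 and 3. Cells of the Rgs5 gate held 11.2, 23.2 and 37.5 CPM of Tslp on 15, 16 and 23 UMIs. The few cells with S100a8 and S100a9, 18, 10 and 12 in number, held 1539, 831 and 1153 CPM of Il1r2 and 446, 712 and 277 CPM of Il1rn. In Langerhans cells Il7r, the gene of the shared TSLP receptor chain, and Crlf2 were both high, at 331 and 302 CPM and at 129 and 106 CPM in young and adult WT.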
